A study of Rattus norvegicus with 12 samples.

Results

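The genes described here are the 40 listed members of the machinery that moves new secretory proteins into the endoplasmic reticulum, removes their signal peptides and attaches and trims their N-linked glycans. The members were chosen by their function, with earlier results of these data known. Of the 40, 39 were measured by an array row that carried a single gene symbol, out of 18154 genes measured in all. Srprb, a receptor subunit for the signal recognition particle, is not analysed here because its rows also carried the symbol of a second gene, Tf. The data are from INS1E, an insulin-secreting rat pancreatic beta-cell line, in 3 stably transfected clones. One clone carried human islet amyloid polypeptide (hIAPP), one carried the rat form (rIAPP), and the control carried the vector pcDNA3 with no insert. All 3 grew in the same medium at 11.1 mM glucose with the selection drug geneticin and were harvested on day 3, with no further treatment. There were 2 samples of each clone, a and b, and so 6 Affymetrix rat arrays. Since each group is 1 clone, transgene and clone cannot be told apart. The labels name no promoter for the transgenes and do not say if a and b came from separate cultures. The p-values therefore reflect the scatter of samples within a clone, which may be technical.

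In secretory cells, the signal recognition particle binds the signal peptide of a nascent chain and brings the ribosome to the Sec61 translocon, a channel assisted by Sec62, Sec63, Tram1 and the TRAP complex. Signal peptidase then cuts the signal peptide, as it does for preproinsulin and prepro-IAPP in beta cells. The oligosaccharyltransferase moves a preassembled sugar tree from the lipid dolichol to asparagines. It exists in forms built on the catalytic subunits STT3A, which works beside the translocon, and STT3B, which also acts after translocation. Glucosidases trim the transferred glycan, and UGGT1 adds glucose back to glycoproteins that are not yet folded.

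The array values are log2 signals, so a difference of 1 is a doubling of signal, and signals of different genes are not compared as amounts of RNA. The rat Iapp row gave a mean signal of 13.82 and differed from control by 0.06 in the hIAPP clone (limma adjusted p = 0.406) and by 0.17 in the rIAPP clone (adjusted p = 0.0507). Of 10 measured beta-cell markers 9 had a signal no lower than that of the median gene, with list means of 11.94 to 12.05 over the 6 arrays. Of the markers of acinar and ductal cells (9 measured), leukocytes (6) and fibroblasts and endothelium (6), 0 did, and of 6 markers of other islet cells 1 did, Gcg at 14.0. Single beta-cell markers differed in either direction. Of the 10, 3 were called higher in the hIAPP clone (Ucn3 by 1.41, Slc30a8 by 0.24 and Mafa by 0.21) and 4 lower (Ins2 at -0.74, Ins1 at -0.57, Nkx6-1 at -0.42 and Nkx2-2 at -0.25). In the rIAPP clone 2 were called higher (Mafa by 0.35 and Slc2a2 by 0.19) and 2 lower (Ins2 at -0.64 and Ins1 at -0.51). Their part in the results on the members was not tested. Arrays correlated at 0.9987 to 0.9990 within a clone and 0.9934 to 0.9955 between clones (Pearson r across genes, which are not independent replicates). Fewer cells of a type and less RNA per cell cannot be told apart in such bulk samples.

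All 39 members had a mean signal above the median gene, and 33 were in the upper quartile. Unless another setting is named, calls are those of the main limma fit of all arrays together. In the hIAPP clone 9 members were called higher than in the control, at an adjusted p under 0.05 in limma, and in the rIAPP clone 5 were. Over all genes, 10.1% were called higher in hIAPP cells and 8.7% in rIAPP cells. Among the 7577 genes with a signal at or above that of the lowest member, the shares were 15.9% and 14.1%. Of the members, 0 were called lower in either clone, where 8.92% and 7.29% of all genes were. At an unadjusted p under 0.05 limma gave 15 members higher and 1 lower, Stt3b, in the hIAPP clone. In the rIAPP clone it gave 16 higher and 1 lower, Srp19. The shares of all genes at that threshold are not given here, so these counts are not set against them. The genes measured in all are on the whole dimmer than the members, and the members' shares of calls were not tested against theirs. With 1 array left out, the number of members called higher in the hIAPP clone was 3 without control sample a and 5 without control sample b or hIAPP sample b. In the rIAPP clone it was 2 without any one of the rIAPP or control arrays.

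Most members were somewhat higher in both transfected clones. The log2 difference from control was above 0 for 34 of 39 members in hIAPP cells (87.2%) and 33 in rIAPP cells (84.6%), against 46.2% and 49.4% of all genes. Its median was 0.11 in hIAPP cells and 0.10 in rIAPP cells, against -0.01 and 0.00 over all genes, and it ranged over -0.13 to 0.50 and -0.18 to 0.46. Both arrays of the transfected clone lay above both control arrays for 28 members in each clone, where 27.2% of all genes did so in hIAPP cells and 31.3% in rIAPP cells. Both lay below for 4 members in each clone, where 30.5% and 29.2% of all genes did. All genes include many dimmer than any member, and these shares were not matched for signal. Calls of higher signal were more frequent among genes at least as bright as the dimmest member, as given above. Magt1, Spcs3, Ostc and Sec11a were called higher in both clones, as were 4.86% of all genes. The comparisons share the same control arrays, so these calls are not independent.

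**Figure D1:**
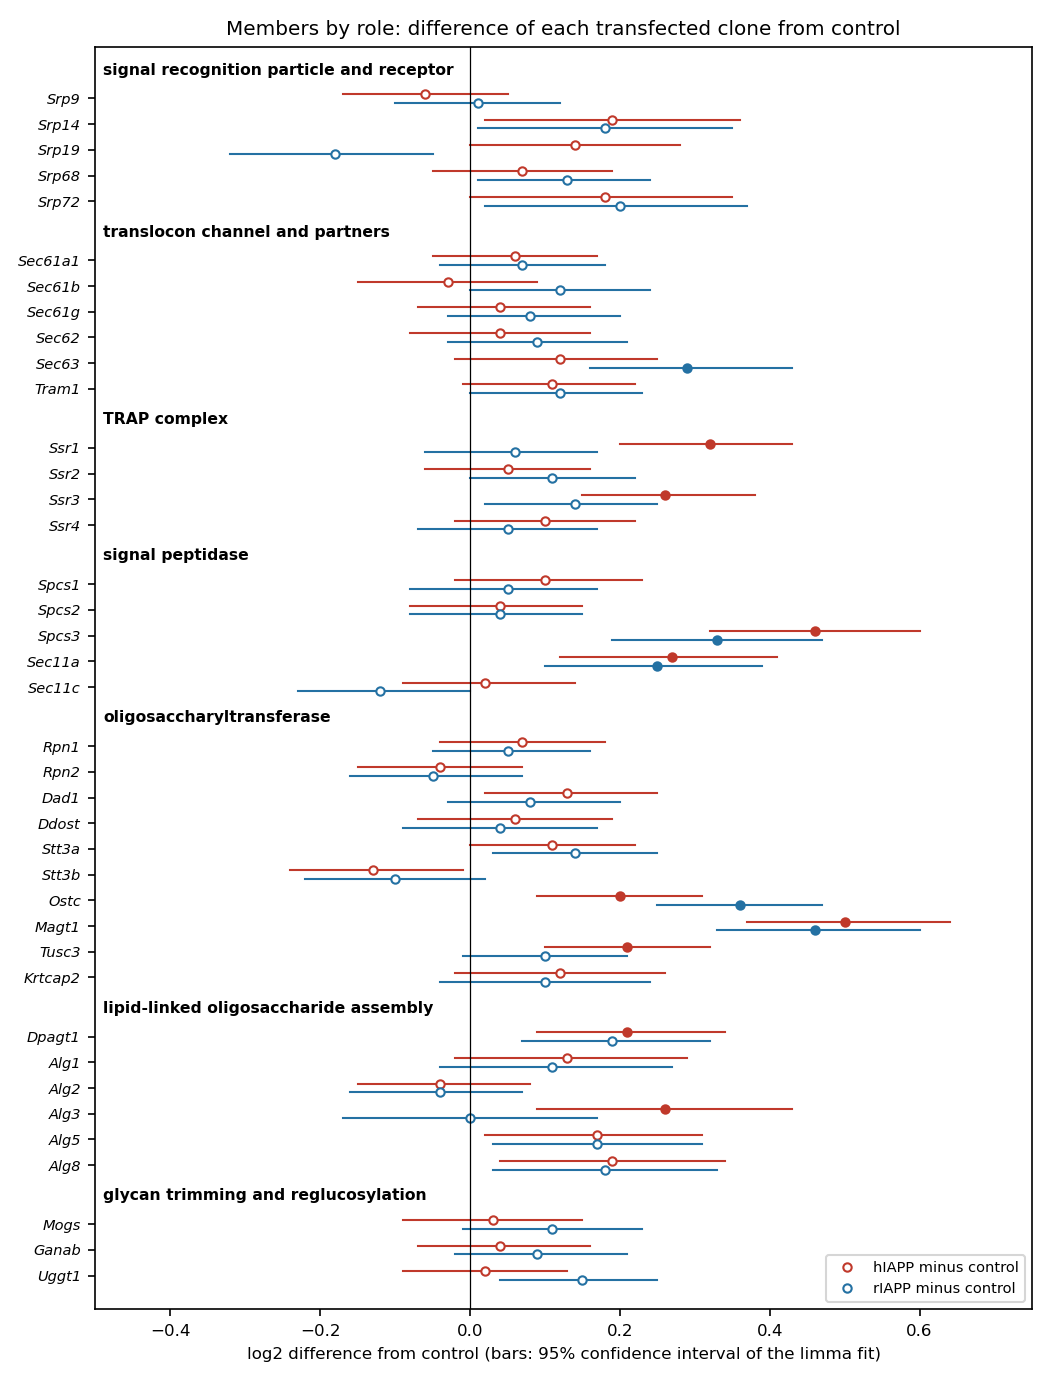
Log2 difference from control of the 39 measured members, by role, for the hIAPP clone and the rIAPP clone, with 95% intervals from limma; filled symbols are called at an adjusted p under 0.05 and hollow ones are not. Most points lie right of 0, between -0.18 and 0.50, with Magt1 and Spcs3 farthest right.

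Promoter sequence was examined because several of these genes are targets of the unfolded protein response in mammalian cells. RefSeq promoters, 250 bases before to 50 after the annotated start in GRCr8, were at hand for 35 of the 39 members and for 14577 measured genes, and both strands were searched. The endoplasmic reticulum stress element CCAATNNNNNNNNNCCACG was in 0 of 35 members and 0.117% of genes, and its second form ATTGGNCCACG in 0 members and 0.0823% of genes. The XBP1 and ATF6 site TGACGTGG was in 1 member, Srp19, and 0.713% of genes. Its core ACGTGG, which lies inside that site, was in 5 members (14.3%), Ssr1, Ssr3, Sec63, Srp19 and Ganab, and 9.47% of genes. The cyclic AMP element TGACGTCA was in 0 members and 2.42% of genes, and the CCAAT box in 11 members (31.4%) and 37.9% of genes. These are matches of letters and not shown to be bound. The stretches of the 4 called members with the core are shown 5′ to 3′ along the gene, with the core, or for Srp19 the whole site, in capitals. Each match reads on the opposite strand, as CCACGT.
Ssr1 (chr17:27039151-27039230, + strand): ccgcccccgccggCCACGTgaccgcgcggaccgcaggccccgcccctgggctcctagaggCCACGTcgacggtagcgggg
Ssr3 (chr2:151935325-151935404, - strand): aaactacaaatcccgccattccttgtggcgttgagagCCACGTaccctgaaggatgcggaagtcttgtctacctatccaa
Sec63 (chr20:47827211-47827290, + strand): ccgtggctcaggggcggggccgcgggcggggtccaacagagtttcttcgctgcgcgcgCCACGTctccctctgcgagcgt
Srp19 (chr18:26205696-26205775, + strand): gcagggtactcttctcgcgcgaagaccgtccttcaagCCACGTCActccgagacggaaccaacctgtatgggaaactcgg

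These 4 genes share the letters but were not called in 1 common comparison. Ssr1, with 2 matches, and Ssr3 were called in the hIAPP clone, Sec63 in the rIAPP clone, and Srp19 between the transfected clones. The promoter of Magt1, the member with the largest difference, held no core and 4 CCAAT boxes, 1 of them on the opposite strand. Its stretch is shown with the boxes (CCAAT or ATTGG) in capitals.
Magt1 (chrX:75145268-75145417, - strand): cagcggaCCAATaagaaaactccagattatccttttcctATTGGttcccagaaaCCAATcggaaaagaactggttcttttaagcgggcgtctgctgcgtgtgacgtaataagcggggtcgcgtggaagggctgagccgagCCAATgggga

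Of 5 measured members of the signal recognition particle and its receptor, 0 were called in either clone against control. Srp72, which forms the particle's protein core with Srp68, had 12.17 and 12.10 in the hIAPP clone and 12.10 and 12.22 in the rIAPP clone, against 11.87 and 12.05 in the control. Its arrays did not overlap the control's, yet the control samples were as far apart as the groups, and the differences of 0.18 and 0.20 were not called (adjusted p = 0.15 and 0.122). Srp14, a subunit at the Alu end of the particle's RNA, differed by 0.19 in hIAPP cells and 0.18 in rIAPP cells and was not called. With an intensity trend in limma Srp72 was called higher in both clones (adjusted p = 0.0346 and 0.0236). Srp14 was then called higher in the hIAPP clone (adjusted p = 0.0499) and Srp68 in the rIAPP clone (adjusted p = 0.0349).

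Srp19, which helps assemble the particle's RNA with its core proteins, separated the transfected clones from each other. It had 10.31 and 10.20 in the hIAPP clone and 9.94 and 9.93 in the rIAPP clone, with 10.16 and 10.07 in the control. The control thus lay between the transfected clones, with no overlap. The difference of -0.18 between rIAPP and control was not called in the main fit (adjusted p = 0.0778). With an intensity trend, or with only genes at or above the median signal, limma called it (adjusted p = 0.0286 and 0.0206). The hIAPP clone was 0.32 above the rIAPP clone, or 1.25-fold (95% interval 0.19 to 0.46, SE 0.0586, adjusted p = 0.0127). All 5 exon-level probe sets of Srp19 were higher in the hIAPP than in the rIAPP clone, by 0.23 to 0.42. Leaving out hIAPP sample a, rIAPP sample a or rIAPP sample b ended the call (adjusted p = 0.0631, 0.0758 and 0.0836), as did subtracting the median of its neighbours on chromosome 18 (0.15, adjusted p = 0.145).

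Of 6 members at the channel, 1 was called against control, Sec63 in the rIAPP clone. Sec63 is the membrane partner that recruits the chaperone BiP to the translocon. It had 11.54 and 11.42 in the hIAPP clone and 11.63 and 11.68 in the rIAPP clone, against 11.37 and 11.35 in the control. Both transfected clones lay above the control, with the rIAPP clone highest. Sec63 rose by 0.29 in the rIAPP clone, or 1.23-fold (95% interval 0.16 to 0.43, adjusted p = 0.014), and the difference between hIAPP and rIAPP, -0.18, was not called (adjusted p = 0.101). Of its 23 exon-level probe sets 22 were higher in the rIAPP clone than in the control. Without either rIAPP array or either control array the call was lost, with adjusted p of 0.0584 to 0.0967. Its neighbours on chromosome 20 were higher by 0.12 in the rIAPP clone, and with those subtracted its difference was 0.17 and not called (adjusted p = 0.064). Sec61a1, the channel itself, had 13.01 and 13.04 in the hIAPP clone and 13.05 and 13.02 in the rIAPP clone, against 12.95 and 12.97 in the control. Its differences were 0.06 (95% interval -0.05 to 0.17) and 0.07 (-0.04 to 0.18). The hIAPP difference of Sec63, 0.12, was not called either (limma adjusted p = 0.211). Whether Sec63 and Sec61a1 differed in their response was not tested. Sec61b, Sec61g, Sec62 and Tram1 were not called in either clone.

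The TRAP complex, which helps some signal peptides open the channel, had 2 of 4 subunits called higher in hIAPP cells and 0 in rIAPP cells. Over all genes 10.1% and 8.7% were called higher in these clones. Ssr1, its alpha subunit, whose promoter stretch holds 2 cores, had 12.44 and 12.42 in the hIAPP clone and 12.13 and 12.21 in the rIAPP clone, against 12.10 and 12.13 in the control. The hIAPP arrays stood apart from the other 4, and the lower rIAPP array equalled the higher control array at this rounding. Ssr1 rose by 0.32 in the hIAPP clone, or 1.24-fold (95% interval 0.20 to 0.43, adjusted p = 0.00481). Its difference in the rIAPP clone was 0.06 (adjusted p = 0.513). The clones also differed directly, by 0.26 for hIAPP minus rIAPP (adjusted p = 0.0166), and all 10 exon-level probe sets were higher in the hIAPP clone. With the median of neighbouring genes on chromosome 17 subtracted, the hIAPP minus control difference was 0.04 (adjusted p = 0.663) and the hIAPP minus rIAPP difference turned to -0.056 (adjusted p = 0.529). That direct call was lost when any array of either clone was left out, with adjusted p of 0.0515 to 0.116.

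Ssr3, the gamma subunit of TRAP, had 12.35 and 12.33 in the hIAPP clone and 12.19 and 12.22 in the rIAPP clone, against 12.05 and 12.10 in the control. The 3 clones did not overlap, with the rIAPP clone between the others. Ssr3 rose by 0.26 in the hIAPP clone (adjusted p = 0.00792, or 0.0568 without control sample a) and its difference of 0.14 in the rIAPP clone was not called (adjusted p = 0.101). Between the transfected clones Ssr3 differed by 0.13 and was not called (adjusted p = 0.144). With an intensity trend in limma Ssr3 was called in the rIAPP clone (adjusted p = 0.0106) and between the transfected clones (adjusted p = 0.0164). Ssr2 was called higher in the rIAPP clone in that fit (adjusted p = 0.0222). In the main fit Ssr2 and Ssr4 were not called in either clone.

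**Figure D2:**
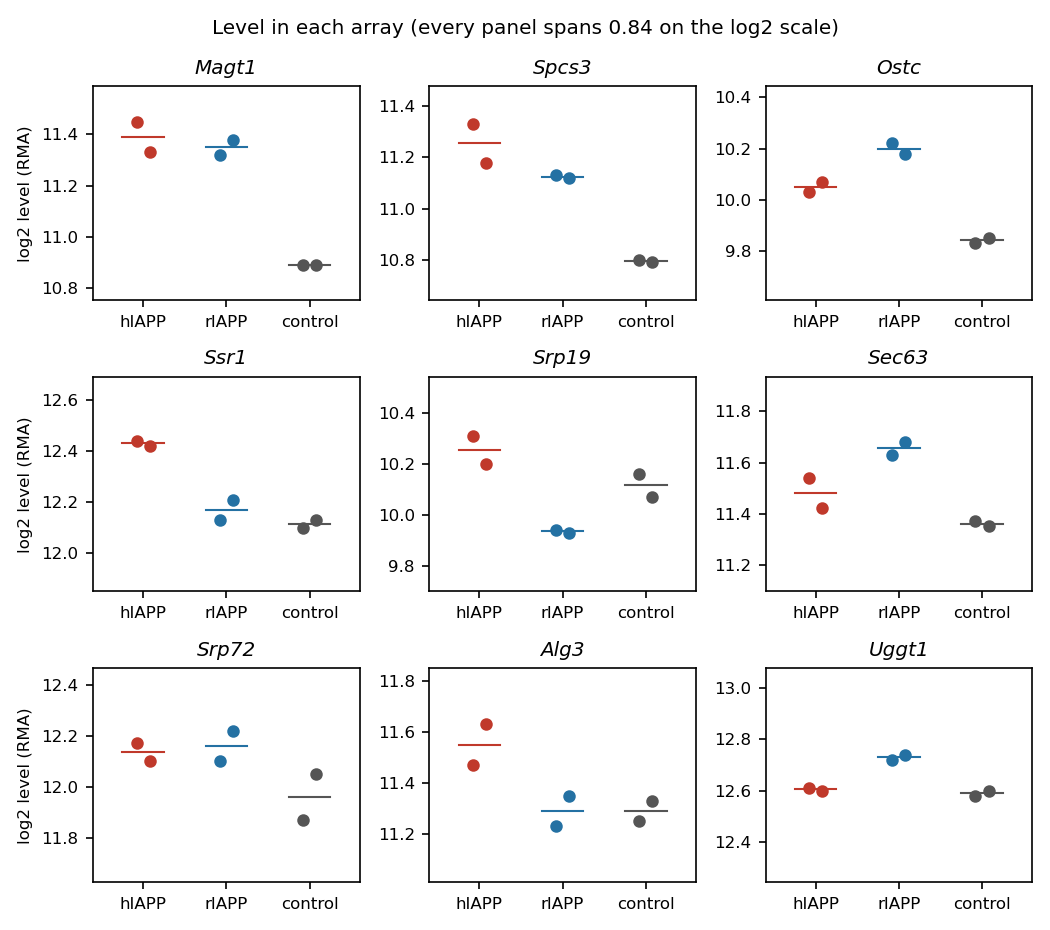
Log2 signal of selected members in each array (points), in the order hIAPP, rIAPP and control, with the mean of the 2 samples of each clone as a line. Magt1, Spcs3 and Ostc lie above the control in both transfected clones, Ssr1 lies above it in the hIAPP clone, and Srp19 has the control between the transfected clones.

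Signal peptidase had 2 of 5 measured members called higher in both transfected clones, Spcs3 and Sec11a, where 4.86% of all genes were. Spcs3, a non-catalytic subunit that the enzyme needs, had 11.33 and 11.18 in the hIAPP clone and 11.13 and 11.12 in the rIAPP clone, against 10.80 and 10.79 in the control. Every transfected array lay above both control arrays. The rise was 0.46 in the hIAPP clone, or 1.37-fold (95% interval 0.32 to 0.60, adjusted p = 0.00191), and 0.33 in the rIAPP clone, or 1.26-fold (0.19 to 0.47, adjusted p = 0.0104). All 9 exon-level probe sets of Spcs3 were higher in both clones, by 0.16 to 0.80 in the hIAPP clone and 0.15 to 0.82 in the rIAPP clone. The rIAPP call was lost without any one of the rIAPP and control arrays (adjusted p = 0.0542 to 0.065). With the median of its neighbours on chromosome 16 subtracted, the hIAPP difference was 0.15 and not called (adjusted p = 0.0965), and the rIAPP difference was 0.20 (adjusted p = 0.0426).

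Sec11a and Sec11c are alternative catalytic subunits of signal peptidase. Sec11a had 11.88 and 11.74 in the hIAPP clone and 11.77 and 11.81 in the rIAPP clone, against 11.50 and 11.59 in the control. It rose by 0.27 in the hIAPP clone (adjusted p = 0.0252) and by 0.25 in the rIAPP clone (adjusted p = 0.0373, or 0.0596 with the sample letter as a block). The hIAPP call was lost without hIAPP sample a (adjusted p = 0.111) or control sample a (0.141), and the rIAPP call without any rIAPP or control array (0.0666 to 0.182). All 6 exon-level probe sets of Sec11a were higher in both clones. Sec11c had 12.00 and 11.93 in the hIAPP clone and 11.82 and 11.83 in the rIAPP clone, against 11.96 and 11.93 in the control. Its hIAPP arrays overlapped the control's and its rIAPP arrays lay below them. The Sec11c differences were 0.02 (95% interval -0.09 to 0.14) and -0.12 (adjusted p = 0.165), and whether Sec11a and Sec11c differed in their response was not tested. Spcs1 and Spcs2 were not called in either clone.

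The oligosaccharyltransferase held the largest difference of any member, in Magt1. Magt1 is an oxidoreductase subunit of the STT3B form and has also been described in magnesium transport. It had 11.45 and 11.33 in the hIAPP clone and 11.32 and 11.38 in the rIAPP clone, against 10.89 and 10.89 in the control. The transfected clones overlapped each other and both lay well above the control. The rise was 0.50 in the hIAPP clone, or 1.42-fold (95% interval 0.37 to 0.64, adjusted p = 0.00103), and 0.46 in the rIAPP clone, or 1.38-fold (0.33 to 0.60, adjusted p = 0.00205). Between the transfected clones the difference was 0.04 (adjusted p = 0.712). All 11 exon-level probe sets were higher than in the control in both clones, by 0.18 to 0.77 in the hIAPP clone and 0.10 to 0.79 in the rIAPP clone. Both calls held under all 14 alternative settings. Tusc3, the alternative to Magt1 in the same form of the enzyme, had 11.79 and 11.80 in the hIAPP clone and 11.66 and 11.71 in the rIAPP clone, against 11.59 and 11.59 in the control. It rose by 0.21 in the hIAPP clone (adjusted p = 0.0201), and the call was lost when any hIAPP or control array was left out (0.0643 to 0.089). Its difference of 0.10 in the rIAPP clone was not called (adjusted p = 0.202). With its neighbours on chromosome 16 subtracted, the hIAPP difference turned to -0.10 (adjusted p = 0.208).

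Ostc, a small subunit of the STT3A form that links it to the translocon, was the other member of this enzyme called higher in both clones. It had 10.03 and 10.07 in the hIAPP clone and 10.22 and 10.18 in the rIAPP clone, against 9.83 and 9.85 in the control. The 3 clones did not overlap, and the rIAPP clone was highest. Ostc rose by 0.36 in the rIAPP clone, or 1.28-fold (95% interval 0.25 to 0.47, adjusted p = 0.0028), a call kept under all 14 settings. It rose by 0.20 in the hIAPP clone (adjusted p = 0.0235), a call lost when any hIAPP or control array was left out (0.0538 to 0.114). The difference between the transfected clones, -0.15, was not called (adjusted p = 0.0897). Its 3 exon-level probe sets were all higher in both clones.

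The catalytic subunits were not called in the main fit. Stt3a differed by 0.11 in hIAPP cells and 0.14 in rIAPP cells (adjusted p = 0.164 and 0.0821). Stt3b had 12.44 and 12.42 in the hIAPP clone and 12.44 and 12.47 in the rIAPP clone, against 12.59 and 12.52 in the control. All 4 transfected arrays thus lay below both controls, by -0.13 and -0.10 on average, but neither was called (adjusted p = 0.136 and 0.242). With an intensity trend in limma Stt3a was called higher in both clones (adjusted p = 0.0153 and 0.00336). With only genes at or above the median signal it was called higher in the rIAPP clone (adjusted p = 0.0215). Stt3b was called lower in the hIAPP clone under these 2 settings (adjusted p = 0.0169 and 0.0464). Magt1 and Tusc3, the partners of STT3B, were thus called higher in the hIAPP clone in the main fit while Stt3b was not called. Rpn1, Rpn2, Dad1, Ddost and Krtcap2 were not called in either clone.

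Of 6 measured members that build the lipid-linked sugar tree, 2 were called higher in hIAPP cells and 0 in rIAPP cells. The shares of all genes called higher were 10.1% and 8.7%. Dpagt1, which starts the tree by adding the first sugar phosphate to dolichol, had 11.44 and 11.55 in the hIAPP clone and 11.47 and 11.48 in the rIAPP clone, against 11.28 and 11.29 in the control. Both clones lay above the control by similar amounts, 0.21 (adjusted p = 0.0323) and 0.19 (adjusted p = 0.051), on either side of the threshold. In the rIAPP clone Dpagt1 was called with an intensity trend in limma (adjusted p = 0.00558). It was also called there with only genes at or above the median signal (0.011) or only the groups compared (0.0372). Alg3, which adds the first mannose on the luminal side, had 11.47 and 11.63 in the hIAPP clone and 11.23 and 11.35 in the rIAPP clone, against 11.25 and 11.33 in the control. It rose by 0.26 in the hIAPP clone (adjusted p = 0.0449), the last member called there, and differed by 0.00 in the rIAPP clone (adjusted p = 0.98). These calls held under the fewest settings. That of Dpagt1 was kept under 6 and that of Alg3 under 5 of 14 settings, and leaving out hIAPP sample b, either rIAPP array or either control array ended both, with adjusted p of 0.061 to 0.133 for Dpagt1 and 0.0583 to 0.198 for Alg3. The next member, Alg8, a glucosyltransferase, was just outside in the hIAPP clone at 0.19 (adjusted p = 0.0839). Alg5 makes the dolichol-linked glucose that Alg8 uses, and all of its 11 exon-level probe sets were higher in both clones. Its differences of 0.17 and 0.17 were not called (adjusted p = 0.106 and 0.104). With an intensity trend, or with only genes at or above the median signal, limma called Alg5 and Alg8 higher in both clones (adjusted p = 0.0162 to 0.0328).

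Of the 3 trimming enzymes 0 were called in either clone. Uggt1, the folding sensor, had 12.61 and 12.60 in the hIAPP clone and 12.72 and 12.74 in the rIAPP clone, against 12.58 and 12.60 in the control. The rIAPP arrays stood above the other 4, by 0.15 over control (adjusted p = 0.0752), while the hIAPP difference was 0.02 (95% interval -0.09 to 0.13). Of its 34 exon-level probe sets 30 were higher in the rIAPP clone than in the control and 20 in the hIAPP clone. Mogs, which removes the outermost glucose of the transferred glycan, and Ganab, the catalytic subunit of the glucosidase that removes the inner ones, were not called.

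**Figure D3:**
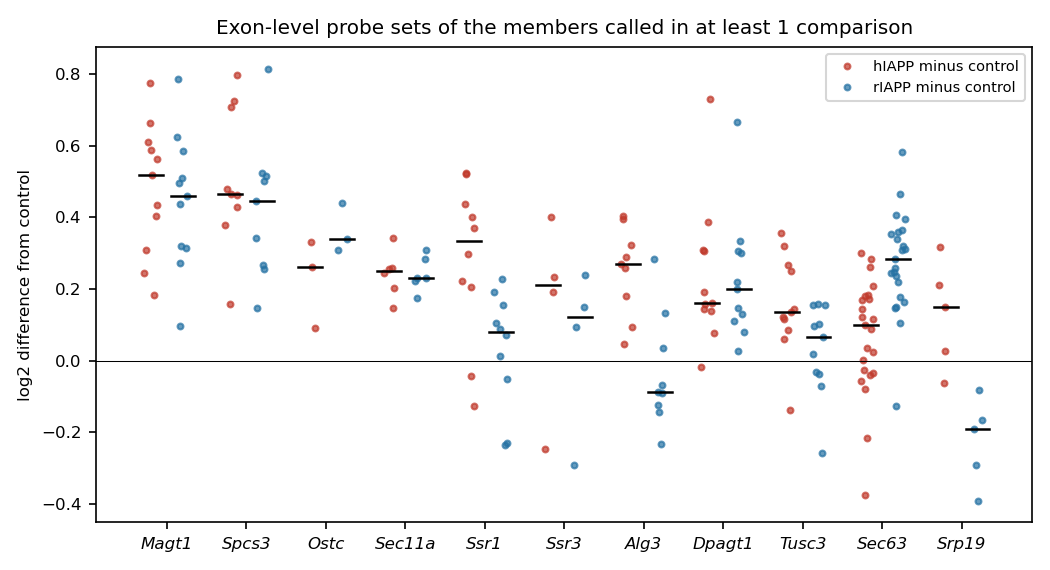
Log2 difference from control of each exon-level probe set (points, spread sideways for visibility) of the 11 members called in at least 1 comparison, with the median as a bar, for the hIAPP clone and the rIAPP clone. All points of Magt1, Spcs3, Ostc and Sec11a lie above 0 in both clones, and all 5 points of Srp19 lie below 0 in the rIAPP clone.

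The exon-level values are a second summary of these 6 arrays, not added replicates, and show whether a difference ran along the transcript. In the hIAPP clone all probe sets were higher for Magt1, Spcs3, Ostc, Sec11a and Alg3, and 1 or 2 were lower for Ssr1, Ssr3, Dpagt1 and Tusc3. The median over the probe sets of Ssr1 was 0.33 and that of Tusc3 was 0.14. In a fit to the median exon-level signal per gene, Tusc3 differed by 0.059 in the hIAPP clone and was not called (adjusted p = 0.785). In that fit 2 members were called higher in hIAPP cells and 2 in rIAPP cells, where 9 and 5 were at gene level. The shares of all genes called in that fit are not given here, so these counts are not set against them.

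Between the transfected clones, 2 members were called higher in the hIAPP clone, Srp19 and Ssr1, and 0 lower, against 6.11% and 5.56% of all genes. At an unadjusted p under 0.05 limma gave 5 members higher and 4 lower, and the shares of all genes at that threshold are not given here. The median difference, hIAPP minus rIAPP, was 0.01 over members and -0.01 over all genes. Alg3 was just outside, 0.26 higher in the hIAPP clone (adjusted p = 0.0596). Without rIAPP sample a or rIAPP sample b, 0 members were called higher, and without hIAPP sample b Srp19 alone was. Without hIAPP sample a neither Srp19 nor Ssr1 was called, and Alg3 was (0.345, adjusted p = 0.0491).

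The members with the highest signals had the smallest median differences. Of the 13 members with mean signals of 12.48 to 13.39, 0 were called in either clone in the main fit. Their median difference was 0.06 in hIAPP cells and 0.07 in rIAPP cells. With an intensity trend in limma, Stt3a and Tram1 among them were called higher in both clones. Dad1 and Spcs1 were then called higher in the hIAPP clone, and Uggt1 and Sec61b in the rIAPP clone. Stt3b was called lower in the hIAPP clone in that fit. Of the 13 at 9.23 to 11.42, which include Magt1, Spcs3 and Ostc, 5 were called higher in hIAPP cells and 3 in rIAPP cells, with medians of 0.19 and 0.11. The 13 between them had 4 and 2 called. The shares called and median differences of all genes in the same signal ranges are not given here. Whether this pattern is particular to the members was not tested, nor was the part of signal level in it.

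Some called members lie where neighbouring genes differed in the same direction. For each member the median difference of 50 neighbouring genes was taken, among genes at or above the median signal in GRCr8 gene order. Around Spcs3 and Tusc3 on chromosome 16 the neighbours were higher by 0.31 each in the hIAPP clone, and by 0.13 each in the rIAPP clone. Around Ssr1 on chromosome 17 they differed by 0.28 in hIAPP cells and -0.04 in rIAPP cells. Around Srp19 on chromosome 18 they differed by -0.06 and -0.23, and around Sec11c on the same chromosome by -0.01 and -0.19. Around Magt1 on chromosome X the values were -0.03 and 0.03, and those around Sec11a and Ssr3 ranged over 0.005 to 0.052. Across the 39 members, which share their arrays, the member's and the neighbours' differences correlated at r = 0.37 in hIAPP cells and 0.53 in rIAPP cells. What shifted these neighbourhoods was not tested.

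**Figure D4:**
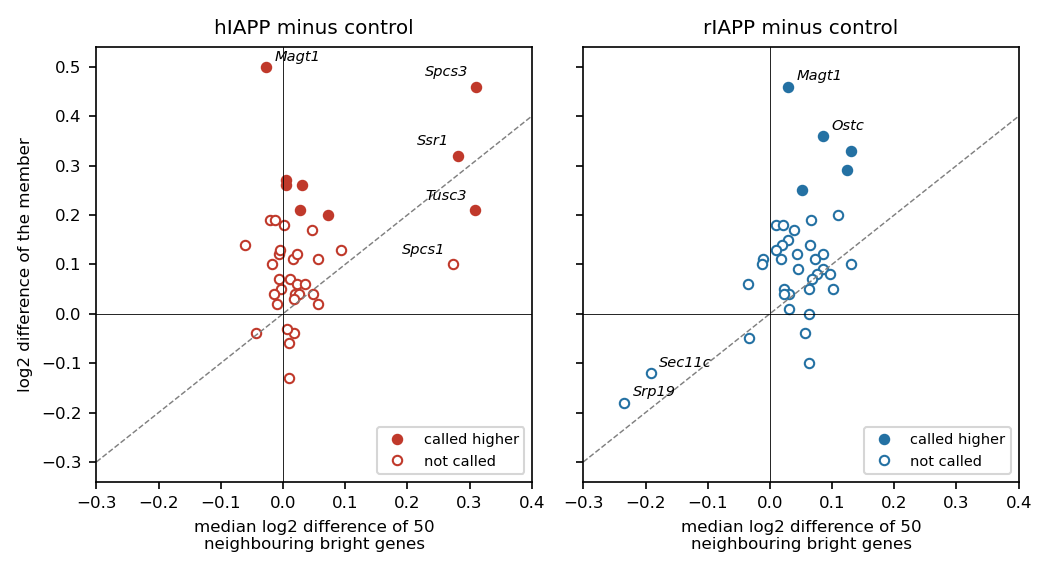
Log2 difference from control of each of the 39 members (vertical axis) against the median difference of its 50 neighbouring genes (horizontal axis), for the hIAPP clone and the rIAPP clone. Spcs3, Tusc3, Ssr1 and Spcs1 have neighbours near 0.3 in the hIAPP clone, while Magt1 stands high with neighbours near 0.

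With each array's neighbour median subtracted, 3 of the 9 calls in the hIAPP clone stayed, those of Magt1 (0.53, adjusted p = 0.000645), Ssr3 (0.26, adjusted p = 0.00929) and Sec11a (0.26, adjusted p = 0.0208). Srp19 was added at 0.20 (adjusted p = 0.0433). The calls of Spcs3, Ssr1, Tusc3, Ostc, Dpagt1 and Alg3 did not stay. In the rIAPP clone Magt1 (0.43, adjusted p = 0.00201), Ostc (0.27, adjusted p = 0.0116) and Spcs3 (0.20, adjusted p = 0.0426) stayed of 5 calls. Between the transfected clones the calls of Srp19 and Ssr1 did not stay, and Alg3 was added at 0.30 (adjusted p = 0.0462). This setting was chosen after the data were seen.

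Of the 63 other genes listed for the pathway, 49 were measured. Of these 7 were called higher and 2 lower in the hIAPP clone, and 7 higher and 2 lower in the rIAPP clone. Of all genes 10.1% and 8.92% were called higher and lower in the hIAPP clone, and 8.7% and 7.29% in the rIAPP clone. The median over the 49 difference was 0.06 in hIAPP cells and 0.09 in rIAPP cells. With 1 array left out, the number higher ranged from 3 to 6 in the hIAPP clone, being 3 without hIAPP sample a, control sample a or control sample b. It ranged from 1 to 6 in the rIAPP clone, being 1 without rIAPP sample b, 2 without rIAPP sample a or control sample a, and 3 without control sample b. The genes called lower were Tram1l1 and Sec61a2 in each clone. Between the transfected clones 2 were higher in the hIAPP clone, Alg11 and Emc3, and 2 lower, Gmppa and Man2a1.

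Among the insertion factors, Tram1l1, a paralog of Tram1, had 7.15 and 7.13 in the hIAPP clone and 7.27 and 7.31 in the rIAPP clone, against 7.68 and 7.60 in the control. It fell by 0.50 in hIAPP cells and by 0.35 in rIAPP cells (adjusted p = 0.000599 and 0.00409), at a signal below the median gene. Sec61a2, a paralog of Sec61a1, fell by 0.18 and 0.20 (adjusted p = 0.0454 and 0.0416), where its neighbours on chromosome 17 differed by -0.17 and -0.13. With those subtracted Sec61a2 was at -0.01 and -0.06 and not called (adjusted p = 0.86 and 0.371), while Tram1l1 was still called in both clones. Emc3, a core subunit of the membrane protein insertase EMC, rose by 0.41 in the hIAPP clone (adjusted p = 0.0017), where its neighbours on chromosome 4 were higher by 0.22, and was not called in the rIAPP clone. Emc6, of the same insertase, rose by 0.23 in the rIAPP clone (adjusted p = 0.0178).

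In dolichol and sugar supply, most calls were rises. Alg11, which adds mannoses on the cytosolic side, rose by 0.49 in hIAPP cells and 0.19 in rIAPP cells (adjusted p = 0.000688 and 0.0446). Its neighbours on chromosome 16 were higher by 0.29 and 0.07. Nus1, a subunit of the enzyme that makes the dolichol chain, rose by 0.25 and 0.31 (adjusted p = 0.00822 and 0.00451). Gnpnat1, in the synthesis of UDP-GlcNAc, rose by 0.23 and 0.33 (adjusted p = 0.0293 and 0.00832). The enzyme that makes GDP-mannose, the mannose donor, has the catalytic subunit Gmppb and the regulatory subunit Gmppa. Gmppb rose by 0.27 and 0.24 (adjusted p = 0.0131 and 0.0245). Gmppa had 9.63 and 9.66 in the hIAPP clone and 10.10 and 10.12 in the rIAPP clone, against 9.77 and 9.85 in the control. It rose by 0.30 in the rIAPP clone (adjusted p = 0.0073), lay below control in the hIAPP clone without a call, and differed by -0.46 for hIAPP minus rIAPP (adjusted p = 0.00132). All 13 of its exon-level probe sets were lower in the hIAPP than in the rIAPP clone. With neighbouring genes subtracted, some of these calls were lost. In the hIAPP clone Emc3 was at 0.19 (adjusted p = 0.0515) and Gnpnat1 at 0.15 (adjusted p = 0.078), and in the rIAPP clone Alg11 was at 0.12 (adjusted p = 0.158) and Gmppb at 0.21 (adjusted p = 0.0577).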

How the data were processed

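RNA of 3 INS1E clones, 2 samples each, was measured on 1-colour Affymetrix rat arrays. The authors deposited log2 values at gene level (36685 rows) and exon level (220231 rows), made with Affymetrix Expression Console and RMA per the submitters' processing notes. No tool version or array build is given in the sources used here. Values were used as deposited. Platform annotation gave 1 symbol for 18511 gene-level rows, several for 575 and none for 17599; the brightest row per symbol was kept, leaving 18154 genes. Old symbols were updated through RefSeq (GRCr8), which also gave gene order and promoters.

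The model was limma 3.58.1 (R 4.3.3) over all genes and the 6 arrays together (3 residual and 4.39 prior degrees of freedom). Each transfected clone was set against the control and hIAPP against rIAPP, with calls at an adjusted p under 0.05 (Benjamini-Hochberg over all genes); the fit was tested on simulated data. The number of arrays limits the precision. Deviations of same-lettered samples correlated across genes at -0.04 to 0.00, so no large effect shared by a letter was seen. This cannot show whether samples were handled in pairs, and the main fit did not pair them. Members and gene lists were chosen with earlier results of these data known. Named are members called in at least 1 contrast or nearest the threshold, array values for those with differences of at least 0.3 or the largest of their role, and up to 8 called genes of the other pathway list by size. Array values were also given for Sec61a1, Ssr3, Sec11a, Sec11c, Tusc3, Dpagt1 and Stt3b, chosen after their values were seen. Alternatives were an intensity trend, bright genes only, exon-level medians, mean of rows per symbol, centred arrays, only the groups compared, a replicate block, leaving out each array and, added after seeing the data, centring on neighbours.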

Additional observations from a re-analysis of the deposited data

Results flagged for a closer look

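The members Srp19 (0.32) and Ssr1 (0.26) differed between the transfected clones in the direct test, hIAPP minus rIAPP in limma, on the log2 scale. Of the other pathway genes, Alg11 (0.30) and Emc3 (0.23) were higher in the hIAPP clone, and Gmppa (-0.46) and Man2a1 (-0.25) were lower. Man2a1, a Golgi mannosidase that trims N-glycans, had 11.98 and 11.98 in the hIAPP clone and 12.22 and 12.23 in the rIAPP clone, with 12.09 and 12.12 in the control. Its adjusted p was 0.0139, and 0.0538 to 0.0894 when any array of the transfected clones was left out. That of Alg11 was 0.0104, and 0.0548 without hIAPP sample b and 0.0819 without rIAPP sample a. That of Emc3 was 0.0281, and 0.065 to 0.173 without any array of the transfected clones. With neighbouring genes centred, the differences of Alg11 and Emc3 were 0.08 and 0.10 (adjusted p = 0.381 and 0.296), and that of Gmppa was still called.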

How the results depend on the processing

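Of 16 calls of members over the 3 contrasts, 3 were kept under all 14 alternatives, those of Magt1 in both clones and Ostc in the rIAPP clone. An intensity trend gave 17 members higher and 1 lower in hIAPP cells, 16 and 2 in rIAPP cells, and 5 and 4 for hIAPP minus rIAPP; for the other pathway genes it gave 12 higher and 5 lower in the hIAPP clone, 17 higher in the rIAPP clone, and 4 and 4 between the clones. With only genes at or above the median signal, 1 member was lower in each clone, 13 were higher in the rIAPP clone, and 5 were higher and 4 lower between the clones; of the other genes 12 and 17 were higher in the hIAPP and rIAPP clones. Medians of exon-level probe sets gave 2, 2 and 0 members higher in the 3 contrasts. For the other genes they gave 2 higher and 1 lower, 3 higher and 1 lower, and 0 and 0. Centring on neighbours gave 4, 3 and 1 members higher, with Tusc3 at -0.10 and Ssr1 between the clones at -0.056 reversed; of the other genes 1 was lower in each contrast and 0 higher between the clones. With only the groups compared, 1 other gene was lower in the hIAPP clone. With the sample letter as a replicate block, 9, 4 and 3 members were higher and 1 other gene was lower in each clone; of the members' calls it ended that of Sec11a in the rIAPP clone. Leaving out 1 array gave 3 to 7, 2 to 6 and 0 to 2 members higher and 0 to 0 lower. For the other genes it gave 3 to 6, 1 to 6 and 0 to 2 higher and 1 to 2 lower in each contrast; a lone sample is then assumed to vary like the others. The causes were not tested. Shares of all genes called under these settings are not given here, so the counts of members are not set against them. Detection over background was not analysed here, and the lowest signal of a member on any array was 9.18. With 1 clone per group, clone and transgene cannot be told apart.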
